A study of Mus musculus with 14 samples.

Results

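The genes described here make cholesterol and fatty acids or control that synthesis. They are 37 genes taken by name from the 22048 protein-coding genes of the count table, and all 37 had enough reads to be tested. By role they were 7 genes of the mevalonate pathway, 11 of the later sterol steps, 6 encoding SREBP (sterol regulatory element-binding protein) factors or their regulators, 8 of fatty acid synthesis and desaturation, and 5 encoding liver X receptors (LXR) or targets of these receptors. RNA sequencing measured them in CD4+ T helper cells of C57BL/6 mice whose interferon-gamma gene carries a YFP reporter, with spleen and peripheral lymph nodes as the source. Uncultured naive cells (3 libraries) were sorted as CD4+ CD44- CD62L+. All other groups began as enriched CD4+ cells, not sorted naive cells, and were held for 4 days in Th1 conditions, which favour interferon-gamma-producing cells. These were plate-bound anti-CD3 and anti-CD28, IL-2, IL-12 and a blocking antibody to IL-4. The cultures held 1 µM of either SGC0946, which blocks DOT1L (an enzyme that methylates histone H3), or the inactive control compound SGC0649. Cells were then sorted by the reporter. This gave YFPneg SGC0649 (2 libraries), YFPpos SGC0649 (3), YFPneg SGC0946 (3) and YFPpos SGC0946 (3). All 5 groups carry the reporter. Neither the age of the mice nor the number of animals per library is given in the sources used here.

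Cells build cholesterol from acetyl-CoA by way of mevalonate, isoprenoids and squalene, and they build fatty acids from the same acetyl-CoA and add double bonds with desaturases. When membrane sterol is low, SCAP carries SREBP from the endoplasmic reticulum to the Golgi, where it is cut to release a transcription factor that switches on genes of both routes. INSIG proteins hold SCAP back when sterol is plentiful, and LXR, activated by oxysterols, turns on sterol export and Srebf1. T cells that leave rest and divide are known to raise this synthesis to make membrane.

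RefSeq promoters on build GRCm38.p6, from 250 bases before to 50 after a transcript start, were found for 29 of the 37 genes (38 promoters in all). Those of Fdps, Fdft1, Sqle, Stard4, Scd1, Scd2, Fads1 and Abcg1 were not among them. Shown are the promoters in which the letters of the classical sterol regulatory element or of a spaced LXR-type repeat were found, since these are the elements through which SREBP and LXR are known to act. Capitals mark the match. Hmgcs1, the mevalonate pathway enzyme that makes HMG-CoA, holds TCACNCCAC at chr13:119690101-119690400 (plus strand), with the match starting 137 bases before the transcript start. Abca1 (chr4:53159846-53160145), Fasn (chr11:120824498-120824797) and 1 of the 3 Srebf1 promoters (chr11:60210422-60210721), all on the minus strand of the genome, hold a loose LXR-type element, GGTNA repeated after 5 unspecified bases, on the strand opposite to transcription. Positions 1 to 300 are printed in the direction of transcription.
Hmgcs1: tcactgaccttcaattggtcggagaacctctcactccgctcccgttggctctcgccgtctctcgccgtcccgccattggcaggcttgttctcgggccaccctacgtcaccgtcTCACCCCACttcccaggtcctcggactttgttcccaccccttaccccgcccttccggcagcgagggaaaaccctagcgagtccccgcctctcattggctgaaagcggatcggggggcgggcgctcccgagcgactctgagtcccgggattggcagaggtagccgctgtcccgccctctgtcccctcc
Srebf1: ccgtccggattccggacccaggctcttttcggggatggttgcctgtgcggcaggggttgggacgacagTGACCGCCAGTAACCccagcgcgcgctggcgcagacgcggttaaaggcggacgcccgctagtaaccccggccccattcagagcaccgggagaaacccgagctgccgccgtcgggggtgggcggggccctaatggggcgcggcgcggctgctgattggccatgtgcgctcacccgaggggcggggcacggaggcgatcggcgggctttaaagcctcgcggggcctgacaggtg
Fasn: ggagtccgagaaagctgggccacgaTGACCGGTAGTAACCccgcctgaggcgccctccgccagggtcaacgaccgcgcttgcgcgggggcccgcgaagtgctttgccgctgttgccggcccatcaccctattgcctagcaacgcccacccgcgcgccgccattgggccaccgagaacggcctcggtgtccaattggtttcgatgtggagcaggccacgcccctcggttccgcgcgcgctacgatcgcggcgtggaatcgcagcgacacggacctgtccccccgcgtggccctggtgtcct
Abca1: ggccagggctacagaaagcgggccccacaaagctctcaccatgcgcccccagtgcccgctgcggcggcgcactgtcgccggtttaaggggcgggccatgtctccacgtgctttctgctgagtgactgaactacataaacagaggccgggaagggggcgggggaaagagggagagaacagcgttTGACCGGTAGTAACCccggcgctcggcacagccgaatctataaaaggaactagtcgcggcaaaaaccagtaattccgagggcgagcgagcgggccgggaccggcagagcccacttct

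The matches stood 67 bases before the start in Abca1, 182 in Srebf1 and 225 in Fasn. Abca1 and Fasn held the same 15 letters, GGTTACTACCGGTCA, and Srebf1 held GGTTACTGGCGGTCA. Both strands were searched, the spellings were chosen after matches had been seen, and a match is a description, not a binding site. TCACNCCAC was in 1 of the 38 promoters (2.63%) against 1.24% of all 32851 RefSeq promoters of this length. The spaced repeat was in 3 of 38 (7.89%) against 0.718%, and the strict element, AGGTCA repeated after 4 unspecified bases, was in none of the 38 against 0.0152%. A looser sterol element, TCNNNCCAC, which also covers the first motif, was in 31.6% of the 38 and 19.1% of all. CCAAT, the box bound by NF-Y, was in 57.9% against 37.4%, and GGGCGG, the box bound by Sp1, in 71.1% against 35.7%.

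Libraries held 14486577 to 31614057 counts on protein-coding genes. Levels below are CPM, the counts of a gene per 1000000 counts of the TMM-scaled library, listed by replicate, and fold changes are log2 values with edgeR's standard error (SE). A gene is said to rise or fall where the edgeR p, adjusted over 12343 tested genes, was under 0.05. The 6 T cell markers measured summed to 4067 to 4238 CPM in naive and 2226 to 2940 CPM in cultured libraries. Myeloid, B cell and dendritic cell markers summed to at most 18.3, 2.89 and 5.88 CPM, and Clec9a was at 0 in all 14 libraries. Unmapped reads took 6.44% to 8.66% in naive and YFPpos libraries, except 3.61% in YFPpos SGC0946 replicate 2, and 3.14% to 4.62% in YFPneg libraries. Within YFPpos SGC0649, replicate 3 had the lowest level for 30 of the 37 genes (81.1%), against 36.8% of all tested genes. Replicate 1 stood at the other end of that group, the highest for 29 genes (78.4%, against 35.7%). YFPpos SGC0946 replicate 2 was the highest of its group for 28 genes (75.7%, against 38.4%), and YFPneg SGC0946 replicate 3 the lowest of its group for 26 (70.3%, against 40.8%).

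After 4 days in culture, most synthesis genes stood above the naive level in both sorts and with both compounds, while Tm7sf2, Mylip and, in YFPpos cells, Abcg1 and both LXR genes stood below it. In YFPpos SGC0649 cells 29 of the 37 genes rose and 6 fell, where 42.6% of all tested genes rose and 37.3% fell (79.8% together). Corresponding counts were 28 and 3 in YFPneg SGC0649 cells (36.4% and 32.6% of all genes, 69% together), 29 and 6 in YFPpos SGC0946 cells (42.2% and 38.5%, 80.7% together), and 30 and 3 in YFPneg SGC0946 cells (38.6% and 34.3%, 72.9% together). The median log2 change of the 37 genes was 1.36, 0.97, 1.43 and 1.03 in that order, and the median over all tested genes was 0.09, 0.031, 0.049 and 0.047. These 4 comparisons share the naive libraries and are not independent. They also differ in the cells at the start and in culture, so stimulation, time and starting population cannot be told apart. In bulk RNA, fewer cells that express a gene and less RNA per cell cannot be told apart either. Summed over all 37 genes, the share of counts was 0.214% to 0.221% in naive libraries and 0.474% to 0.484% in YFPneg SGC0649. It was 0.534% to 0.659% in YFPpos SGC0649, 0.49% to 0.543% in YFPneg SGC0946 and 0.71% to 0.766% in YFPpos SGC0946.

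**Figure D1:**
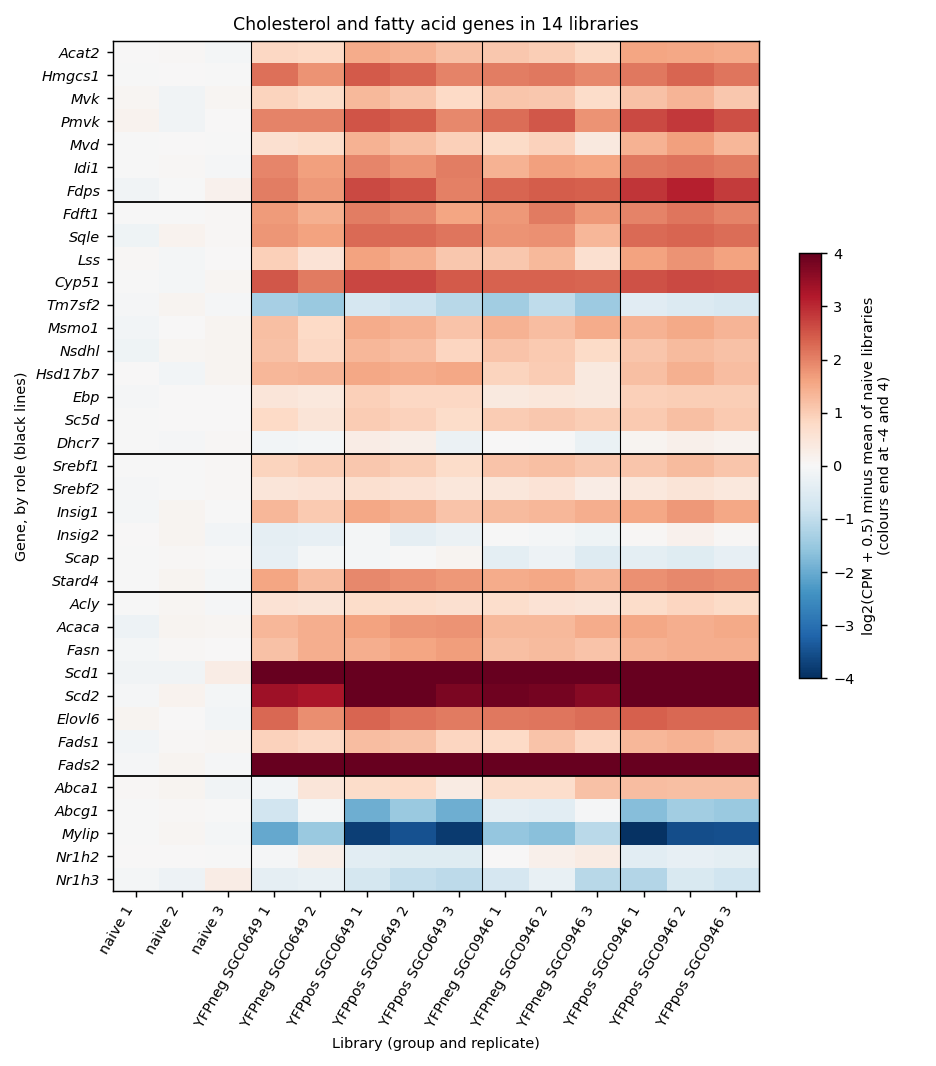
Colour gives the log2 level (CPM + 0.5) of each gene, by role, in each of the 14 libraries, minus the mean of the 3 naive libraries; colours end at -4 and 4. Most genes are red in all 11 cultured libraries, Tm7sf2 and Mylip are blue in all of them, and Scd1 and Fads2 lie past the end of the scale. Scd2 also lies past it in the YFPpos libraries other than SGC0649 replicate 3.

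The mevalonate pathway turns acetyl-CoA into farnesyl diphosphate, and all 7 of its genes rose in all 4 cultured groups. Hmgcs1 held 64.1, 66.3 and 65.1 CPM in naive libraries, 299.7 and 228 in YFPneg SGC0649 and 358, 328 and 261 in YFPpos SGC0649. With SGC0946 it held 270.5, 282 and 249 in YFPneg and 281, 330.4 and 289 in YFPpos libraries. Every cultured library lay above every naive one, and the 4 cultured groups overlapped. Its log2 change against naive was 2.28 (SE 0.114, edgeR adjusted p = 4.83e-12) in YFPpos SGC0649 cells and ranged from 2.02 to 2.28 over the 4 groups. Fdps, which joins the isoprene units into farnesyl diphosphate, had 5.51, 6.11 and 7.03 CPM in naive libraries. It had 27.4 and 22.0 in YFPneg SGC0649, 41.3, 38.0 and 26.5 in YFPpos SGC0649, 33.0, 35.5 and 34.9 in YFPneg SGC0946 and 48.5, 57.4 and 45.8 in YFPpos SGC0946. YFPpos SGC0946 libraries were the highest, and the 4 log2 changes ran from 1.99 to 3.02.

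Pmvk, the second kinase of the pathway, rose by log2 2.04 to 2.75 in the 4 groups, and Idi1, which isomerises the isoprene unit, by 1.61 to 2.21. The changes were smaller for Acat2, a cytosolic acetyl-CoA acetyltransferase that starts the route (0.83 to 1.57), for the mevalonate kinase gene Mvk (0.86 to 1.25) and for the decarboxylase gene Mvd (0.70 to 1.48). Sequence shared with other annotated genes could split or remove reads for some of these. It covered 39.1% of 50-base windows in Acat2, 26.2% in Fdps and 17.7% in Idi1, and multi-mapping reads were a separate unassigned category, so the levels of these genes are uncertain.

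Of the 11 genes that lead from squalene to cholesterol, 9 rose in each cultured group, Tm7sf2 fell in each, and Dhcr7 passed the test in none. Cyp51, the lanosterol demethylase, had 53.6, 51.1 and 57.3 CPM in naive libraries and 227 to 302 in YFPneg SGC0649. Its level was 348, 346 and 298 in YFPpos SGC0649, 279.7, 279 and 272 in YFPneg SGC0946 and 317, 339.6 and 330.2 in YFPpos SGC0946. The naive range was below every cultured library, and the log2 changes were 2.29 to 2.61. Sqle, whose product adds the oxygen to squalene, had 28.3, 35.7 and 32.9 CPM in naive libraries. It had 110.2 and 98.2 in YFPneg SGC0649, 157, 156 and 143 in YFPpos SGC0649, 113, 116 and 81.5 in YFPneg SGC0946 and 155, 163 and 152 in YFPpos SGC0946. All 6 YFPpos libraries lay above all 5 YFPneg libraries, which lay above the naive ones. Its log2 change was 2.24 (SE 0.114, edgeR adjusted p = 5.94e-12) in YFPpos SGC0649 cells and 1.69 (SE 0.123, edgeR adjusted p = 1.64e-09) in YFPneg SGC0649 cells.

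Fdft1, which joins 2 farnesyl units into squalene, rose by log2 1.59 to 2.06, and Lss, which closes the sterol rings, by 0.77 to 1.69. The demethylation genes Msmo1 and Nsdhl rose by 1.02 to 1.43 and 1.01 to 1.20, and Hsd17b7, which reduces the ketone left by that step, by 0.82 to 1.56. Ebp, the sterol isomerase, rose by 0.41 to 0.99 and Sc5d, which adds the last ring double bond, by 0.67 to 1.11. Tm7sf2, a sterol C14 reductase, moved the other way. It had 19.3, 21.4 and 19.1 CPM in naive libraries, 7.67 and 6.78 in YFPneg SGC0649 and 12.4, 11.0 and 9.04 in YFPpos SGC0649. In SGC0946 cultures it had 7.21, 9.67 and 6.9 in YFPneg and 14.5, 13.5 and 12.6 in YFPpos libraries. Every cultured library was below the naive range, with log2 -1.46 (SE 0.177, edgeR adjusted p = 1.15e-06) in YFPneg SGC0649 cells as the lowest of the 4 changes and -0.56 (SE 0.146, edgeR adjusted p = 0.00204) in YFPpos SGC0946 cells as the smallest fall. Dhcr7, which carries out the last reduction to cholesterol, ranged over 45.0 to 48.0 CPM in naive and 39.1 to 56.3 CPM in YFPpos SGC0649 libraries. Its log2 differences from naive were 0.11, -0.11, 0.15 and -0.082, with a 95% interval of -0.084 to 0.39 for the highest of these. It passed in YFPpos SGC0649 cells without replicate 3 of that group, and in YFPpos SGC0946 cells with only the groups compared.

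Among the SREBP factors, both transcription factor genes rose in the 4 cultured groups, Srebf1 more than Srebf2 in log2 terms. Srebf1, tied mainly to fatty acid genes, had 116, 116 and 122 CPM in naive libraries, 221 and 241 in YFPneg SGC0649 and 251, 236 and 195 in YFPpos SGC0649. It had 258, 275 and 250.3 in YFPneg SGC0946 and 253, 283 and 255 in YFPpos SGC0946 libraries. The sorts overlapped within each compound, and no cultured library reached down to the naive ones, with log2 changes of 0.95 to 1.16. Srebf2, tied mainly to sterol genes, had 303, 311 and 319.7 CPM in naive libraries and 381 to 457 CPM in YFPneg SGC0946, the cultured group with the lowest mean. In YFPpos SGC0649, the group with the highest mean, it had 429 to 484 CPM. Its log2 changes were 0.44 to 0.56. Insig1, itself a sterol-responsive gene, rose by 1.20 to 1.62, and Stard4, which carries sterol between membranes, by 1.42 to 1.89.

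Insig2 and Scap did not follow these. Insig2 had 29.4, 31.2 and 26.5 CPM in naive libraries, 22.6 and 22.9 in YFPneg SGC0649 and 27.3, 22.4 and 24.4 in YFPpos SGC0649. It had 29.0, 27.4 and 25.5 in YFPneg SGC0946 and 30.2, 32.5 and 30.0 in YFPpos SGC0946. Only the SGC0649 groups fell against naive, by log2 0.35 (SE 0.11, edgeR adjusted p = 0.00924) in YFPneg and 0.23 (SE 0.0971, edgeR adjusted p = 0.0377) in YFPpos cells, whose libraries overlapped the naive ones. The call in YFPpos cells was lost without a filter on low counts, without naive replicate 1 or 2 and without YFPpos SGC0649 replicate 2 or 3. Scap fell with SGC0946, by 0.40 (SE 0.0795, edgeR adjusted p = 0.00019) in YFPpos and 0.37 (SE 0.0803, edgeR adjusted p = 0.000581) in YFPneg cells. With SGC0649 its differences from naive were 0.004 in YFPpos and -0.19 in YFPneg cells, the latter passing with only the groups compared and without YFPneg SGC0649 replicate 2.

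Genes of fatty acid synthesis and desaturation all rose in the 4 cultured groups, with the desaturase genes Scd1, Scd2 and Fads2 showing the highest changes of all 37 genes. Scd1, which makes monounsaturated fatty acids, had 3 reads in the naive libraries together, all in replicate 3. It had 22.8 and 14.9 CPM in YFPneg SGC0649, 85.6, 78.9 and 35.3 in YFPpos SGC0649, 57.9, 45.7 and 33.3 in YFPneg SGC0946 and 175, 198 and 156 in YFPpos SGC0946 libraries. With so few naive reads, the ratio of pooled levels to naive stands beside a 95% interval that covers counting error only, and reads copied by PCR are not independent molecules. This ratio was 316.6 (107.9 to 1539) in YFPneg SGC0649, 1111 (379.9 to 5389) in YFPpos SGC0649, 784.4 (268.1 to 3806) in YFPneg SGC0946 and 2926 (1001 to 14190) in YFPpos SGC0946. Fads2, the delta-6 desaturase of polyunsaturated fatty acids, had 1 read in the naive libraries. In the cultured groups it had 31.2 and 23.1 CPM (YFPneg SGC0649), 83.4, 62.3 and 31.0 (YFPpos SGC0649), 56.3, 53.7 and 27.9 (YFPneg SGC0946) and 114, 136 and 114 (YFPpos SGC0946). Its ratio to naive was 1368 (245 to 54080), 2961 (531.1 to 117000), 2374 (425.6 to 93790) and 6090 (1093 to 240600) in that order.

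Scd2, the desaturase of many tissues outside liver, was well measured in naive cells at 81.3, 92.8 and 80.4 CPM. It had 894 and 826 CPM in YFPneg SGC0649, 1773, 1762 and 1160.2 in YFPpos SGC0649, 1250.3, 1205 and 1067 in YFPneg SGC0946 and 2239, 2465 and 2217 in YFPpos SGC0946. The YFPpos SGC0946 libraries were above all others, and the only groups that overlapped were YFPpos SGC0649, through its replicate 3, and YFPneg SGC0946. Log2 changes against naive were 4.21 (SE 0.137, edgeR adjusted p = 1.32e-14) in YFPpos SGC0649 and 4.77 (SE 0.14, edgeR adjusted p = 3.25e-15) in YFPpos SGC0946 cells, and 3.34 and 3.79 in the YFPneg groups. Fasn, the fatty acid synthase, had 237, 260.0 and 252 CPM in naive libraries, 566 and 681 in YFPneg SGC0649 and 688, 749.6 and 789 in YFPpos SGC0649. It had 575, 595 and 549.6 in YFPneg SGC0946 and 658, 678 and 684 in YFPpos SGC0946, and its log2 changes were 1.20 to 1.57. Acly, which splits citrate to supply cytosolic acetyl-CoA, rose by 0.55 to 0.78, the smallest changes of the role. Acaca, which makes malonyl-CoA, rose by 1.39 to 1.75, though 30.4% of its 50-base windows are shared with other genes. Elovl6, which lengthens palmitate, rose by 2.12 to 2.35, and Fads1, the delta-5 desaturase, by 0.89 to 1.34.

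Per kilobase of merged exon, a rough common scale for genes of different length, Scd2 ranked first of the 37 genes in every cultured group and Acly second. Merged exons cover all annotated transcripts of a gene, whether expressed here or not, and reads lost to shared sequence were not corrected for. Scd2 averaged 157.4 CPM per kb in YFPneg SGC0649, 286.4 in YFPpos SGC0649, 214.9 in YFPneg SGC0946 and 422.3 in YFPpos SGC0946, with the lowest library at 151.2 and the highest at 451.2. Acly averaged 83.2 to 97.9 CPM per kb over these groups, and no library of it reached the range of Scd2. Cyp51, Hmgcs1, Srebf2 and Fasn came next in every cultured group, and neighbours in the order of these 4 genes overlapped in each. In naive cells the order was Acly (57.0 CPM per kb), Srebf2 (43.3), Nr1h2 (38.3), Mylip (30.5) and Fasn (22.8), with no overlap between these neighbours, and Scd2 averaged 15.5.

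The LXR genes and targets went in different directions. Abca1, which exports cholesterol, had 31.4, 32.6 and 27.3 CPM in naive libraries, 28.0 and 42.6 in YFPneg SGC0649 and 50.6, 53.1 and 38.4 in YFPpos SGC0649. It had 49.8, 49.5 and 69.2 in YFPneg SGC0946 and 72.2, 71.0 and 70.8 in YFPpos SGC0946 libraries. YFPneg SGC0649 overlapped the naive range and the other groups were above it, and the gene rose by 0.64 (SE 0.157, edgeR adjusted p = 0.00128) in YFPpos SGC0649, 1.23 in YFPpos SGC0946 and 0.88 in YFPneg SGC0946 cells. Abcg1, the other sterol exporter, had 101, 107 and 102 CPM in naive libraries, 60.8 and 97.3 in YFPneg SGC0649 and 26.1, 36.5 and 26.1 in YFPpos SGC0649. It had 80.7, 77.4 and 100.4 in YFPneg SGC0946 and 31.3, 39.3 and 36.8 in YFPpos SGC0946. It fell in YFPpos cells, by 1.80 (SE 0.16, edgeR adjusted p = 1.19e-08) with SGC0649 and 1.52 (SE 0.157, edgeR adjusted p = 8.49e-08) with SGC0946. In YFPneg cells its differences were -0.39 (adjusted p = 0.0552) and -0.26 (adjusted p = 0.132), from edgeR. With SGC0649 the YFPneg fall passed with RLE scaling, without a filter, with DESeq2, with limma-voom, with only the groups compared and without YFPneg SGC0649 replicate 2, and its adjusted p over all alternatives ran from 0.00198 to 0.689. With SGC0946 it passed with only the groups compared and without YFPneg SGC0946 replicate 3 (0.0261 to 0.331).

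Mylip, a ubiquitin ligase that marks lipoprotein receptors for breakdown and a known LXR target, fell in every cultured group. It had 97.3, 104 and 94.0 CPM in naive libraries, 23.4 and 35.0 in YFPneg SGC0649 and 6.77, 8.41 and 6.49 in YFPpos SGC0649. With the inhibitor it had 33.2, 30.6 and 46.0 in YFPneg and 5.91, 7.95 and 8.1 in YFPpos libraries. All YFPpos libraries lay below all YFPneg ones, with log2 changes of -3.77 (SE 0.179, edgeR adjusted p = 2.22e-12) in YFPpos SGC0649 and -1.75 (SE 0.183, edgeR adjusted p = 1.87e-07) in YFPneg SGC0649 cells. Nr1h2, encoding LXR-beta, fell in YFPpos cells by 0.47 with SGC0649 and 0.38 with SGC0946. It rose in YFPneg SGC0946 cells by 0.19 (SE 0.0785, edgeR adjusted p = 0.0379), a call lost when only these groups were fitted and when any naive library or YFPneg SGC0946 replicate 2 or 3 was left out. Nr1h3, encoding LXR-alpha, had 0.711 to 2.84 CPM over all libraries and is measured with few reads. It fell in YFPpos SGC0649 (-1.23) and YFPpos SGC0946 cells (-1.13), the second call being lost without naive replicate 3 or YFPpos SGC0946 replicate 1. In YFPneg SGC0946 cells (-0.85) it passed with DESeq2, with limma-voom and without YFPneg SGC0946 replicate 2. Myeloid and B cell marker sums were also lower in culture than in naive libraries, at 4.39 to 14.7 against 15.8 to 18.3 CPM and at 0.0697 to 1.37 against 1.62 to 2.89 CPM, and their part in the LXR gene levels was not tested.

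**Figure D2:**
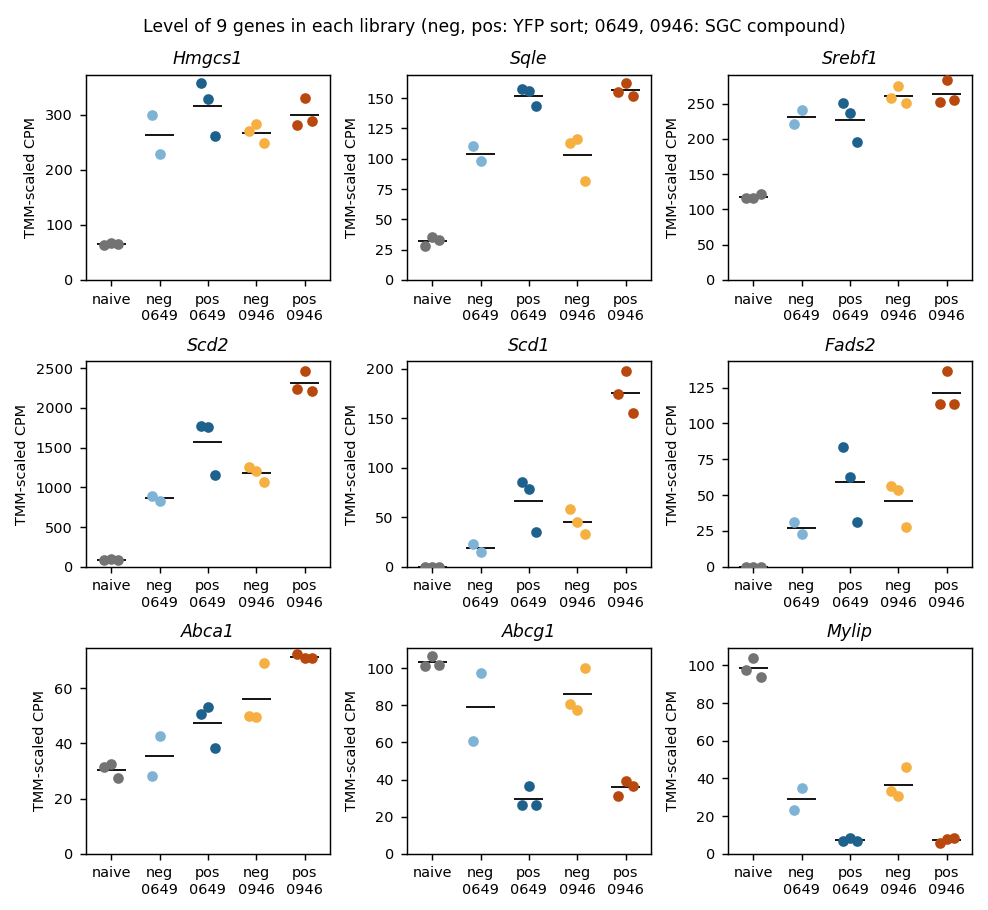
Each point is the TMM-scaled CPM of 1 gene in 1 library, by group (naive, then YFPneg and YFPpos with SGC0649, then YFPneg and YFPpos with SGC0946), and bars are group means. The means of Scd1, Scd2 and Fads2 are highest in YFPpos SGC0946 cells, those of Mylip and Abcg1 are low in both YFPpos groups, and YFPpos SGC0649 replicate 3 (the rightmost of its 3 points) is low for Scd1, Scd2 and Fads2.

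Cells that had switched on the interferon-gamma reporter held more transcript of many of these genes than reporter-negative cells of the same compound, and less of 3 LXR-related genes. With SGC0649, 15 of 37 genes were higher in YFPpos cells and 3 lower, where 23.9% of all tested genes were higher and 21.3% lower (45.2% together). With SGC0946, 19 were higher and 3 lower, where the shares of all genes were 26.9% and 27.8% (54.7% together). The median log2 difference of the 37 genes was 0.25 and 0.23, against 0.042 and 0.0090 over all genes. Abcg1, Mylip and Nr1h2 were the 3 lower genes with both compounds. Of 2 tested dendritic cell markers, Zbtb46 was also higher in YFPpos cells, by 1.48 and 1.04. Flt3 differed by -1.93 with SGC0649 and 1.38 with SGC0946 and passed with neither, and the dendritic markers summed to at most 5.88 CPM. Of 9 tested myeloid markers, only the macrophage gene Mrc1 passed, higher with SGC0946 (1.84). Of 6 T cell genes, Cd3e, Cd5 and Lck were lower with both compounds and the other 3 did not pass. Their part in these results was not tested.

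Among mevalonate genes, Acat2 was higher in YFPpos cells by 0.54 with SGC0649 and 0.59 with SGC0946, Mvd by 0.51 and 0.76, and Fdps by 0.51 and 0.55. Pmvk (0.49) and Idi1 (0.60) passed with SGC0946, and with SGC0649 their differences were 0.32 and 0.14. For Hmgcs1 the differences were 0.26 (95% interval 0.006 to 0.51) and 0.17 (-0.057 to 0.39), and for Mvk 0.25 and 0.23, with overlapping groups. In the sterol steps, Sqle (0.55 and 0.60), Lss (0.63 and 0.65), Cyp51 (0.32 and 0.25), Tm7sf2 (0.58 and 0.77) and Ebp (0.42 and 0.58) were higher with both compounds. Msmo1 passed with SGC0649 only (0.34, against 0.043 with SGC0946) and Hsd17b7 with SGC0946 only (0.50, against 0.18). Fdft1, Nsdhl, Sc5d and Dhcr7 passed with neither compound and differed by 0.079 to 0.29.

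Srebf1 and Srebf2, which rose in culture, differed little between the sorts. The difference for Srebf1 was -0.022 (95% interval -0.21 to 0.16) with SGC0649 and 0.014 (-0.15 to 0.18) with SGC0946. That for Srebf2 was 0.063 (-0.092 to 0.22) and 0.016 (-0.12 to 0.15). Stard4 was higher in YFPpos cells with both compounds, by 0.42 and 0.41, and Insig1 with SGC0946, by 0.27. Insig2 and Scap passed with neither compound.

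Scd1 had the highest difference between the sorts, 1.82 (SE 0.311, edgeR adjusted p = 0.000165) with SGC0649 and 1.94 (SE 0.255, edgeR adjusted p = 6.9e-06) with SGC0946. Its YFPpos and YFPneg libraries, listed above, did not overlap with either compound. Fads2 followed with 1.12 (SE 0.317, edgeR adjusted p = 0.00847) and 1.40 (SE 0.27, edgeR adjusted p = 0.00034), and with SGC0649 its YFPpos replicate 3 lay just below YFPneg replicate 1. Scd2 differed by 0.86 and 0.97. Fasn differed by 0.25 and 0.23, Acaca passed with SGC0649 (0.33), and Acly (0.18) and Fads1 (0.40) passed with SGC0946. Elovl6 did not pass. In the other direction, Mylip was lower in YFPpos cells by 2.02 (SE 0.192, edgeR adjusted p = 3.29e-07) and 2.31 (SE 0.175, edgeR adjusted p = 1.14e-08). Abcg1 was lower by 1.42 (SE 0.173, edgeR adjusted p = 5.22e-06) and 1.26 (SE 0.157, edgeR adjusted p = 3.68e-06), and Nr1h2 was lower by 0.57 and 0.57. Abca1 differed by 0.42 and 0.35, with adjusted p = 0.0567 and 0.0603 from edgeR. These passed with both compounds without a filter, with DESeq2 and with limma-voom, and with SGC0946 also with RLE scaling and with only the groups compared. Over all alternatives the adjusted p of Abca1 ran from 0.00456 to 0.558 with SGC0649 and from 0.00653 to 0.21 with SGC0946.

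Single libraries decided part of these counts. Without YFPpos SGC0649 replicate 3 the count with SGC0649 was 22 higher and 3 lower, adding 8 genes such as Hmgcs1 and Abca1 and losing Fasn. Without YFPneg SGC0649 replicate 2 it was 10 higher and 3 lower, and Cyp51, Fads2, Fdps, Lss, Msmo1, Stard4 and Tm7sf2 were no longer called. Mvd, Acaca and Fasn were lost without YFPneg SGC0649 replicate 1, Fdps and Msmo1 without YFPpos SGC0649 replicate 1 or 2, and Tm7sf2 without YFPpos SGC0649 replicate 1. With SGC0946, leaving out YFPpos replicate 2 removed Acly, Cyp51, Insig1 and Pmvk. Insig1 was also lost without YFPneg SGC0946 replicate 1 or 2, and Pmvk without YFPneg SGC0946 replicate 3. With only the groups compared in the fit, Cyp51, Fasn, Fdps and Msmo1 were lost with SGC0649. In both comparisons Acat2, Sqle, Ebp, Scd1, Scd2, Mylip, Abcg1 and Nr1h2 passed the test under every alternative run.

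**Figure D3:**
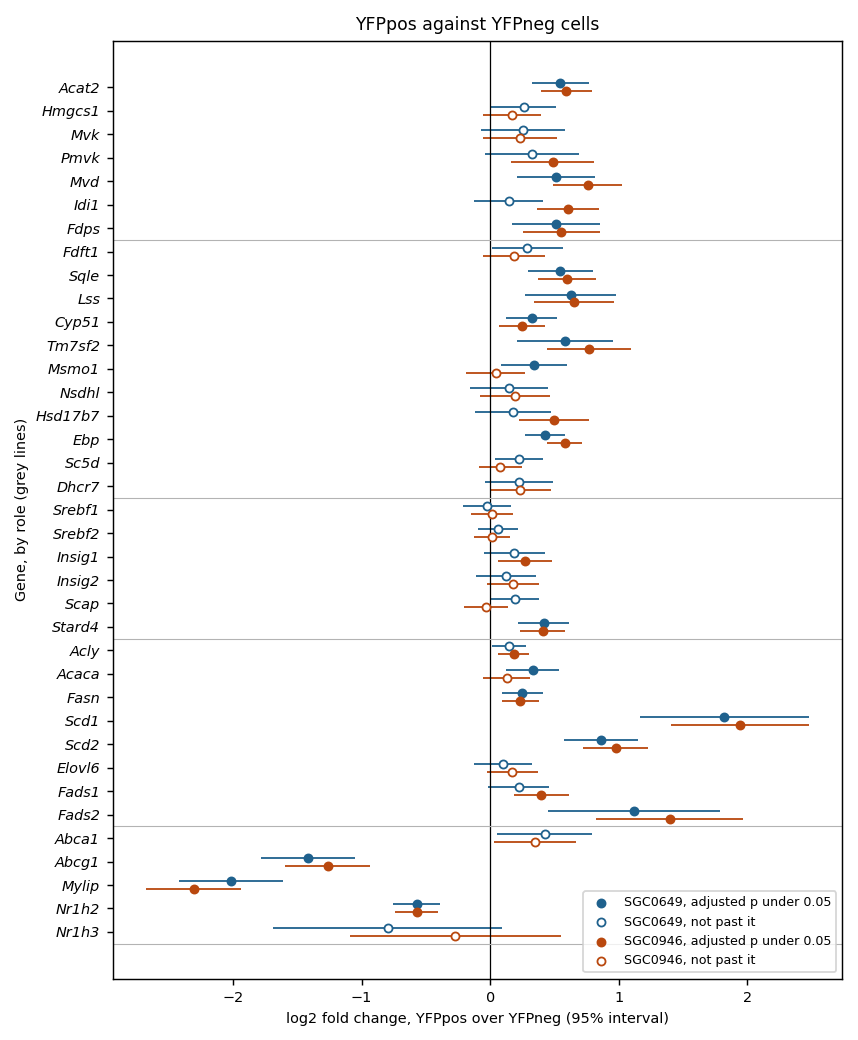
Points are log2 fold changes of YFPpos over YFPneg cells with SGC0649 (blue) and SGC0946 (orange), and lines are 95% intervals; filled points passed the test. Scd1, Scd2 and Fads2 lie farthest to the right, and Mylip and Abcg1 farthest to the left.

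**Figure D4:**
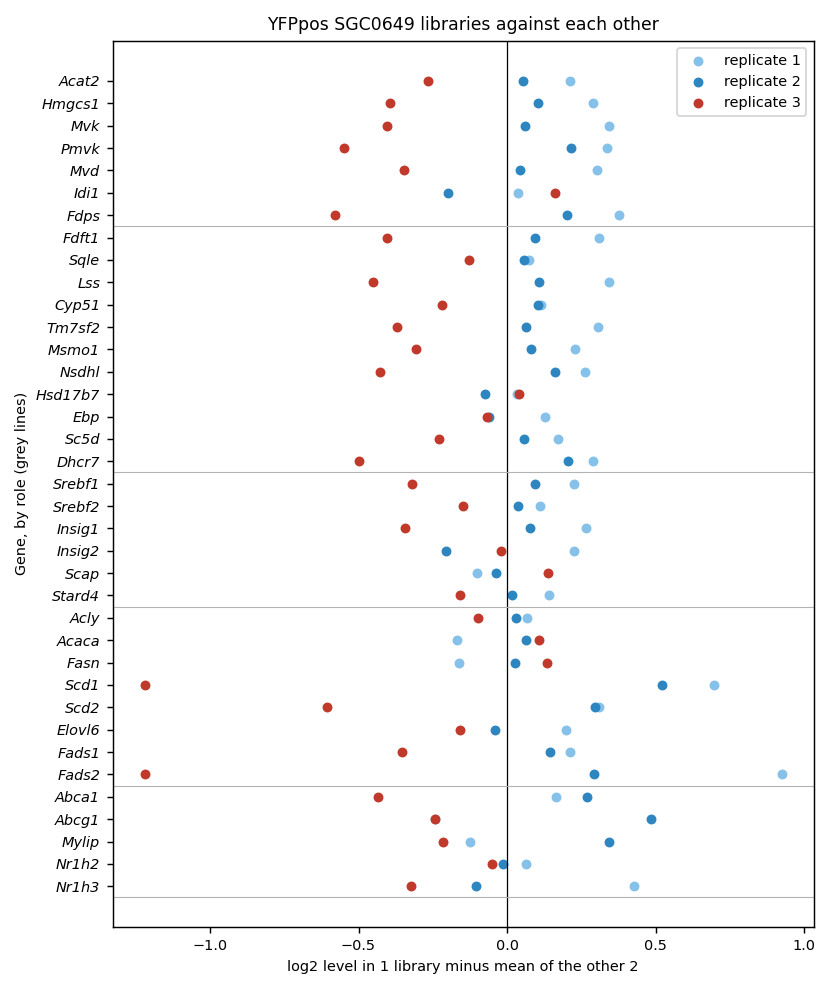
Each point is the log2 level of a gene in 1 YFPpos SGC0649 library minus the mean of the other 2. Replicate 3 (red) lies to the left for most genes, most of all for Scd1 and Fads2, and to the right for Idi1, Hsd17b7, Scap, Acaca and Fasn.

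The compounds were compared at the same dose and time, within each sort. In YFPpos cells 6 of the 37 genes were higher with the DOT1L inhibitor SGC0946 and 1 lower (16.2% and 2.70%), while 12.1% of all tested genes were higher and 15.7% lower (27.7% together), so the share of higher genes is near the background. Scaling by RLE size factors turned the split of all calls from 43.5% higher to 55.1% higher, and gave 8 higher and 1 lower among the 37 genes. The median log2 difference of the 37 genes was 0.13, against -0.038 over all genes. Scd1 had 85.6, 78.9 and 35.3 CPM with SGC0649 and 175, 198 and 156 with SGC0946, a difference of 1.40 (SE 0.247, edgeR adjusted p = 0.000651). Fads2 rose by 1.04 (SE 0.263, edgeR adjusted p = 0.00773) and Scd2 by 0.56 (SE 0.118, edgeR adjusted p = 0.00252). For all 3 desaturase genes every SGC0946 library lay above every SGC0649 library, and the lowest library was SGC0649 replicate 3. Without that replicate the log2 differences were 1.10 for Scd1, 0.74 for Fads2 and 0.39 for Scd2, and all 3 remained called.

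Abca1 had 50.6, 53.1 and 38.4 CPM with SGC0649 and 72.2, 71.0 and 70.8 with SGC0946 in YFPpos cells, without overlap, a difference of 0.59 (SE 0.15, edgeR adjusted p = 0.00783). Fdps was higher by 0.52 (SE 0.139, edgeR adjusted p = 0.0108) and Insig2 by 0.32 (SE 0.0954, edgeR adjusted p = 0.0191). Scap had 132, 136 and 147 CPM with SGC0649 and 106, 98.5 and 109 with SGC0946, and was lower by 0.40 (SE 0.0791, edgeR adjusted p = 0.00147). No sterol-step gene passed. Sc5d came closest, with 106, 101 and 88.0 CPM with SGC0649 and 110.3, 122 and 108 with SGC0946, without overlap, a difference of 0.21 (SE 0.0784, edgeR adjusted p = 0.0566). It passed with RLE scaling, without a filter, with DESeq2, with limma-voom, with only the groups compared and without YFPpos SGC0649 replicate 1, and its adjusted p over all alternatives ran from 0.0186 to 0.275. Srebf1 passed under these except the fit of only the groups compared, and Pmvk under these except RLE scaling. Sqle differed by 0.042 (95% interval -0.18 to 0.26), Cyp51 by -0.007 (-0.18 to 0.17) and Hmgcs1, of the mevalonate pathway, by -0.073 (-0.30 to 0.15). Srebf1 differed by 0.21 (0.048 to 0.38), Srebf2 by -0.11 (-0.25 to 0.025) and Fasn by -0.14 (-0.28 to 0.004). The count depended on single libraries. Without YFPpos SGC0649 replicate 3 it was 3 higher and 1 lower, with Abca1, Fdps and Insig2 no longer called, and without replicate 1 of that group it was 12 higher and 2 lower. Insig2 was also lost without YFPpos SGC0649 replicate 2, and both Fdps and Insig2 without YFPpos SGC0946 replicate 2.

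Some markers of other cell types differed between the compounds in YFPpos cells. The 12 myeloid markers summed to 7.22 to 8.64 CPM with SGC0649 and to 14.3 to 14.7 CPM with SGC0946, and Itgam, 1 of the 9 that could be tested, was higher by 2.43. Its reads numbered 69 with SGC0649 and 440 with SGC0946 over the group, and those of the macrophage receptor gene Mrc1 134 and 411. Of the defining myeloid genes, Lyz2 had 1 and 8 reads and Csf1r 4 and 0. The dendritic cell gene Flt3 was higher by 3.39 (6 and 79 reads), while Zbtb46 (312 and 218 reads) differed by -0.78 and did not pass. Of the 6 T cell genes Cd3g was higher by 0.46, Cd5 was lower by 0.32 and the other 4 did not pass. Dendritic cell markers summed to 3.78 to 5.88 and 3.34 to 4.22 CPM. The part of these cells in the Abca1 and desaturase values was not tested.

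In YFPneg cells 4 of the 37 genes were higher with SGC0946 and 1 lower (10.8% and 2.70%), where 4.99% of all tested genes were higher and 3.64% lower (8.63% together). None of the 9 tested myeloid markers passed here. Itgam had 39 reads with SGC0649 (2 libraries) and 173 with SGC0946 (3 libraries), Mrc1 had 31 and 72, and Cd68 had 150 and 117. The part of such cells was not tested. Scd1 had 22.8 and 14.9 CPM with SGC0649 and 57.9, 45.7 and 33.3 with SGC0946, without overlap, a difference of 1.28 (SE 0.312, edgeR adjusted p = 0.0196). Scd2 was higher by 0.45 (SE 0.134, edgeR adjusted p = 0.0466), Abca1 by 0.67 (SE 0.175, edgeR adjusted p = 0.0275) and Sc5d by 0.35 (SE 0.0899, edgeR adjusted p = 0.024). Hsd17b7 had 29.4 and 30.3 CPM with SGC0649 and 21.6, 23.9 and 15.3 with SGC0946 and was lower by 0.56 (SE 0.142, edgeR adjusted p = 0.0243). Fads2 differed by 0.77, with adjusted p = 0.136 from edgeR and overlapping groups. With 2 SGC0649 libraries, each of these calls depended on single libraries. Without YFPneg SGC0649 replicate 2 only Abca1 was called, and without replicate 1 Scd1, Sc5d and Msmo1 were. Leaving out YFPneg SGC0946 replicate 1 gave 3 calls, with Scd1 and Scd2 lost. Scd2 was also lost without replicate 2 of that group and Abca1 without replicate 3. Limma-voom lost Scd1 and Scd2, RLE scaling lost Scd2, and the fit of only the groups compared lost Abca1, Hsd17b7 and Sc5d.

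**Figure D5:**
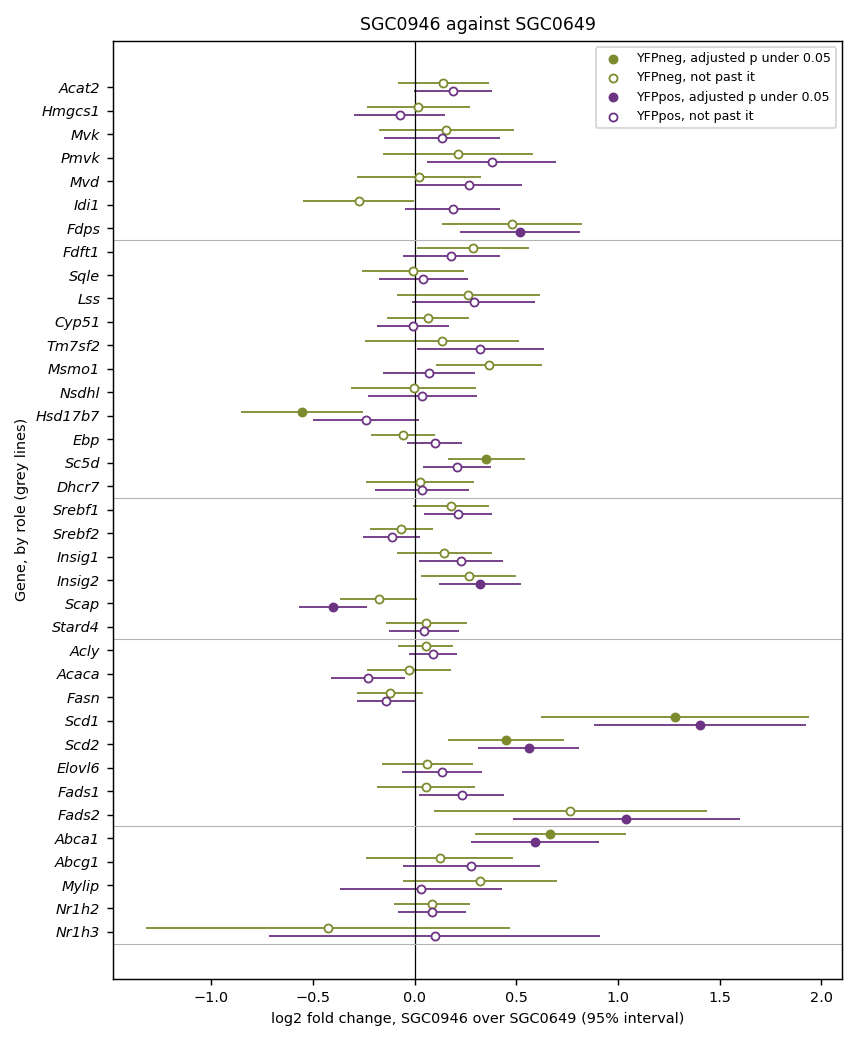
Points are log2 fold changes of SGC0946 over SGC0649 in YFPneg (green) and YFPpos cells (purple), lines are 95% intervals, and filled points passed the test. Scd1, Fads2, Scd2 and Abca1 lie to the right in both sorts, most other intervals include 0, and Scap (YFPpos) and Hsd17b7 (YFPneg) are the called genes on the left.

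Whether the effect of the inhibitor differed between the sorts was tested as an interaction, and none of the 37 genes passed, where 1.15% of all tested genes did in either direction. Of the 37 genes, 1 had an unadjusted p under 0.05 by edgeR and 1 by DESeq2, which also called none after adjustment. By edgeR it was Idi1, whose effects differed by 0.46 (SE 0.17, edgeR adjusted p = 0.237). For Scd1 the interaction was 0.12 (95% interval -0.71 to 0.95), for Scd2 0.11 (-0.26 to 0.49), for Fads2 0.28 (-0.59 to 1.14) and for Abca1 -0.076 (-0.56 to 0.41). These intervals leave room for differences between the sorts in either direction.

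Genes next to these routes were read as 5 further lists, 4 of which are given here. Against naive cells in YFPpos SGC0649 cells, 8 of 15 tested genes of the isoprenoid branch rose and 3 fell, with a list median of 0.20. The counts were 5 and 5 in YFPneg SGC0649, 6 and 5 in YFPpos SGC0946 and 6 and 7 in YFPneg SGC0946 cells, with medians of -0.10, -0.059 and -0.066. Pdss1, which makes the tail of coenzyme Q, rose by 2.12, 1.54, 1.70 and 0.98 in YFPpos and YFPneg SGC0649 and YFPpos and YFPneg SGC0946 cells. Ggps1, which makes geranylgeranyl diphosphate, fell by 0.90, 0.54, 0.97 and 0.68 in the same order. Rabggta, of the same list, fell further with SGC0649, by 1.55 in YFPpos and 1.14 in YFPneg cells. Of 20 genes of sterol sensing and SREBP processing, 9 rose and 7 fell in YFPpos SGC0649, 8 and 7 in YFPneg SGC0649, 6 and 7 in YFPpos SGC0946 and 4 and 6 in YFPneg SGC0946 cells. Mbtps1, the site-1 protease that cuts SREBP, fell by 0.79, 0.56, 0.88 and 0.45. Sar1b, part of the vesicle coat that leaves the endoplasmic reticulum, rose by 0.96, 0.82, 0.98 and 0.72. Larger changes were seen in Gramd1a and Gramd1b. Gramd1a averaged 1397 CPM in naive cells and fell by 2.46 in YFPpos SGC0649, 1.95 in YFPneg SGC0649 and 1.65 in YFPneg SGC0946 cells. Gramd1b averaged 106.8 CPM in naive cells and rose by 1.68, 1.67 and 1.57 in these 3 groups. The shares that rose in these lists were 53.3% and 45% in YFPpos SGC0649 cells, beside 42.6% of all genes. They were 33.3% and 40% in YFPneg SGC0649 (36.4% of all), 40% and 30% in YFPpos SGC0946 (42.2%) and 40% and 20% in YFPneg SGC0946 cells (38.6%). The shares that fell were 20% and 35% in YFPpos SGC0649 (37.3% of all) and 33.3% and 35% in YFPneg SGC0649 cells (32.6%). With SGC0946 they were 33.3% and 35% in YFPpos (38.5%) and 46.7% and 30% in YFPneg cells (34.3%).

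Of 20 tested genes of sterol uptake, transport and storage, 5 rose and 11 fell in YFPpos SGC0649 cells, with a median of -0.33. These were 25% and 55%, beside 42.6% and 37.3% of all genes. The counts were 6 and 8 in YFPneg SGC0649, 6 and 10 in YFPpos SGC0946 and 8 and 7 in YFPneg SGC0946 cells, with medians of -0.15, -0.14 and -0.13. In that order these were 30% and 40% (36.4% and 32.6% of all genes), 30% and 50% (42.2% and 38.5%) and 40% and 35% (38.6% and 34.3%). Tmem97, a sterol-regulated membrane protein, had 4.02, 4.24 and 3.86 CPM in naive libraries, 32.9 and 30.7 in YFPneg SGC0649 and 56.5, 54.8 and 57.9 in YFPpos SGC0649, and rose by 3.80 (SE 0.095, edgeR adjusted p = 3.99e-16) in the latter. These 3 groups did not overlap, and it was also higher in YFPpos than in YFPneg cells by 0.83 and 0.84. Scarb1, a receptor for high-density lipoprotein, rose by 1.79 to 2.42 and Lipa, which frees cholesterol in lysosomes, changed by -2.38 to -1.47 over the 4 cultured groups, past the threshold in each. Of 29 tested genes of fatty acid supply, elongation and lipid assembly, 19 rose and 8 fell in YFPpos SGC0649 cells, with a median of 0.62. These were 65.5% and 27.6%, beside 42.6% and 37.3% of all genes. The counts were 13 and 8 in YFPneg SGC0649, 17 and 8 in YFPpos SGC0946 and 14 and 9 in YFPneg SGC0946 cells, with medians of 0.14, 0.72 and 0.43. As shares these were 44.8% and 27.6%, 58.6% and 27.6%, and 48.3% and 31%, beside the same shares of all genes as for the sterol transport list. Slc25a1, which moves citrate out of mitochondria, rose by 1.83 in YFPneg SGC0649, 1.98 in YFPneg SGC0946 and 2.28 in YFPpos SGC0946 cells. In YFPpos SGC0649 cells the 2 rising genes with the smallest p were Mid1ip1 and Acsl5 (1.47), and the Slc25a1 value is not given here. Mid1ip1, which activates acetyl-CoA carboxylase, rose by 1.89 to 2.86 over the 4 groups.

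Acss2, which makes acetyl-CoA from acetate, went against that list. It had 95.7, 91.4 and 95.2 CPM in naive libraries, 20.7 and 22.1 in YFPneg SGC0649 and 11.1, 9.27 and 5.58 in YFPpos SGC0649. SGC0946 libraries had 36.1, 35.8 and 31.5 (YFPneg) and 14.9 to 19.98 (YFPpos). No pair of the 5 groups overlapped, naive cells being highest and YFPpos SGC0649 cells lowest. It was higher with the inhibitor by 1.06 (SE 0.171, edgeR adjusted p = 0.000327) in YFPpos and 0.69 (SE 0.18, edgeR adjusted p = 0.0275) in YFPneg cells. In the interaction, 1 of the 20 sterol sensing genes passed and 0 of 15, 20 and 29 in the other lists, where 1.15% of all tested genes did. The gene was Gramd1b, a carrier of plasma membrane cholesterol. It had 327, 335 and 362 CPM with SGC0649 and 192, 173 and 193 with SGC0946 in YFPpos cells, and 334 and 344 and 312, 315 and 327 in YFPneg cells. Gramd1b was lower with SGC0946 by 0.88 in YFPpos cells and differed by -0.093 in YFPneg cells, and the interaction was -0.78 (SE 0.0971, edgeR adjusted p = 0.000823).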

How the data were processed

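The deposited values were raw read counts per gene, made by the authors with featureCounts on build GRCm38, per the submitters' processing notes; the file header names protein-coding genes and the file is titled as reverse-strand counts. For the aligner and annotation release, the sources used here name none. A deposited summary of counts per assignment category gave the shares of unmapped and multi-mapping reads. All sample columns were used (0 left out). The 14 libraries formed 5 groups. The submitters call them biological replicates, and nothing says they came from separate animals, so p-values measure the spread between these libraries.

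The tests ran under edgeR 4.0.16 (R 4.3.3): filterByExpr by group (12343 of 22048 genes), TMM scaling, and the quasi-likelihood F test on all libraries without a block, with Benjamini-Hochberg adjustment over all tested genes and a threshold of 0.05. The common biological coefficient of variation was 9.12%. SE was derived from the log2 fold change and F, and intervals are 95%. The edgeR test was run on counts simulated from its own fitted model for 1 comparison, SGC0946 against SGC0649 in YFPpos cells. Such counts cannot show unequal spread between groups or shared cultures. There were 9 comparisons. Lengths and shared 50-base windows came from GENCODE M21 on GRCm38. Alternatives were RLE scaling, no filter, DESeq2 1.42.0, limma-voom (limma 3.58.1), fits of only the groups compared, replicate blocks, and leaving out each library.

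All members are named. Genes named from the related lists were among up to 2 per direction with the smallest p in a comparison, and not all such genes are named. The members and lists were chosen with earlier results of these data known. The labels do not say that replicate numbers mark shared cultures.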

Additional observations from a re-analysis of the deposited data

How the results depend on the processing

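No value changed sign past the threshold under any alternative run. The count of called members was within 1.5 times under every alternative for the 4 comparisons with naive cells (34 to 35, 31 to 33, 34 to 35 and 32 to 33 when single libraries were left out), for YFPpos against YFPneg cells with SGC0649 (13 to 25) and with SGC0946 (18 to 22), and for the interaction (0 to 0). In YFPpos cells the compound comparison gave 7, and 11 without a filter on low counts, 12 with DESeq2, 11 with limma-voom, 12 with only the groups compared and 4 to 14 when single libraries were left out. In YFPneg cells it gave 5, and 3 with limma-voom, 2 with only the groups compared and 1 to 5 when single libraries were left out. Fewer samples enter the last 2 settings in both sorts, and the cause was not tested. The main fit gives all groups 1 spread per gene, but replicates differed unequally. The mean chi-square per gene between 2 libraries of a group was 3.08 to 3.41 in naive and 13.8 in YFPneg SGC0649. It was 10.1 to 19.1 in YFPneg SGC0946, 5.57 to 20.5 in YFPpos SGC0649 and 3.29 to 9.27 in YFPpos SGC0946. Adjusted p may be too small where groups spread more than the rest. Over all genes, the compound comparison in YFPneg cells called 1065 genes, and 1615 with DESeq2, 236 with only the groups compared and 335 without YFPneg SGC0649 replicate 2. The interaction called 142 (22.5% higher, and 32.8% under RLE scaling), and 301 with DESeq2, 57 with only the groups compared and 61 to 241 when single libraries were left out. In YFPpos cells the compound comparison called 3424, and 4807 with only the groups compared, 1886 without YFPpos SGC0649 replicate 3 and 2004 without YFPpos SGC0946 replicate 2.

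Whether replicate numbers mark pairs was not settled. Correlations of deviations from group means between same-numbered YFPpos and YFPneg libraries were 0.147 and 0.0361 with SGC0649 and 0.111, 0.0784 and 0.0405 with SGC0946. Between differently numbered libraries they were -0.147 to 0.115 with SGC0649 and -0.0722 to -0.00711 with SGC0946. Deviations within a group balance out, so these values are not independent. With the number as a block, members called between the sorts were 24 (SGC0649) and 25 (SGC0946), against 18 and 22 without it, and 0 in the interaction. A replicate block by the last digit gave 23 and 22 there, 11 for the compounds in YFPpos cells and 7 in YFPneg cells. Depth limits Nr1h3 throughout, and Scd1 and Fads2 in naive cells.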

Other observations

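Fatty acid oxidation, the route opposite to synthesis, was read as the fifth list, with 20 of 22 genes tested. Against naive cells 10 rose and 8 fell in YFPpos SGC0649 cells (50% and 40%, beside 42.6% and 37.3% of all tested genes), with a median log2 change of 0.17. The counts were 6 and 8 in YFPneg SGC0649, 9 and 8 in YFPpos SGC0946 and 10 and 6 in YFPneg SGC0946 cells, with medians of 0.075, 0.088 and 0.22. In that order these were 30% and 40% (36.4% and 32.6% of all tested genes), 45% and 40% (42.2% and 38.5%) and 50% and 30% (38.6% and 34.3%). Acadl, the long-chain acyl-CoA dehydrogenase, had 48.1, 43.4 and 46.0 CPM in naive libraries, 138 and 119.7 in YFPneg SGC0649 and 209.9, 171 and 148 in YFPpos SGC0649. With SGC0946 it had 203, 185 and 184 in YFPneg and 385, 416 and 378 in YFPpos libraries, which were the highest of the 14. Acadl was higher with the inhibitor by 1.16 (SE 0.0965, edgeR adjusted p = 7.73e-07) in YFPpos and 0.57 (SE 0.11, edgeR adjusted p = 0.00654) in YFPneg cells, and the interaction was 0.59 (95% interval 0.28 to 0.90, edgeR adjusted p = 0.0564). Cpt1a, which admits fatty acids to mitochondria, fell against naive cells by 1.13, 1.11, 1.26 and 1.18 in YFPpos and YFPneg SGC0649 and YFPpos and YFPneg SGC0946 cells.

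Plin2, a coat protein of lipid droplets, had 20.6, 24.9 and 18.9 CPM in naive libraries and 24.1 and 19.3 in YFPneg SGC0649, 35.8, 31.3 and 32.4 in YFPpos SGC0649, 26.3, 29.5 and 21.3 in YFPneg SGC0946 and 55.3, 53.8 and 52.3 in YFPpos SGC0946 libraries. It was higher in YFPpos than in YFPneg cells with SGC0946, by 1.06 (SE 0.123, edgeR adjusted p = 1.54e-06), and higher with SGC0946 than with SGC0649 in YFPpos cells, by 0.70 (SE 0.119, edgeR adjusted p = 0.000516). In the sterol transport list, Osbpl5 and Abca7 were higher with SGC0946 in YFPpos cells, by 0.80 and 0.56, and Ncoa7 was lower by 0.64. Ncoa7 was also lower in YFPpos than in YFPneg cells, by 1.12 with SGC0649 and 1.36 with SGC0946, and Lrp8, a lipoprotein receptor, was higher there by 0.78 and 1.22.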
